A study of Oryctolagus cuniculus with 9 samples.

Results

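Acute-phase proteins and the C/EBP transcription factors that act on their genes were described in urethral tissue of the rabbit. The 10 genes, SAA3, ORM1, HP, CP, LCN2, LBP, CHI3L1, CHI3L2, CEBPB and CEBPD, were taken by symbol from a count table of 28788 genes, and all 10 had a row. The list was selected on symbols by someone who knew the fold changes and calls of these comparisons, so their levels, fold changes and calls are a description and support nothing by themselves. The study tested a layered hydrogel stent for urethral repair and sequenced tissue to examine how the stent acts. Polyadenylated RNA was sequenced in 9 libraries, 3 each under the codes S9, S7 and S6. The labels give the tissue and the code, but not the treatment, time, strain or age behind a code, which code is a control, or whether the libraries came from different rabbits. P-values therefore measure the spread between these libraries, which may be technical. Libraries are named by code and number, as in S6_2.

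The acute-phase response is the change in plasma proteins that follows injury or infection. Its main source is the liver, where interleukin 6 acting through STAT3, together with interleukin 1 and tumour necrosis factor acting through NF-kappaB and C/EBP factors, switches the genes on. Epithelia, fibroblasts and leukocytes can make many of the same proteins at the site of damage. The proteins bind haem, iron, lipids or bacterial products, and serum amyloid A also attracts leukocytes.

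Depth was even, at 35127085 to 36832773 counts per library. Levels are given as CPM, the counts relative to the library total after TMM scaling, or, for a comparison between genes, as the authors' FPKM, which divides by gene length. Mitochondrially encoded genes took only 0.243% to 0.419% of the counts in S9_4, S7_3 and S6_4, against 0.910% to 1.52% in the other 6 libraries. Folds are therefore also given in those 6 mitochondria-rich libraries, S9_1, S9_2, S7_2, S7_4, S6_2 and S6_3. That fit has fewer libraries in each group than the fit of all 9, which by itself can lower the number of calls. All 12 markers of urethral epithelium on the list used passed the filter on low counts, and their summed level was 2627 to 5738 CPM in S9, 4485 to 6036 CPM in S7 and 3819 to 5277 CPM in S6. Hepatocyte markers were at or near 0. TTR, APOA1 and APOA2 had no count in any library, albumin (ALB) had 13 counts over the 9 libraries, and the liver transcription factor HNF4A had 6. The 10 hepatocyte markers used with a row summed to 1.45 to 3.36 CPM in S9, 2.29 to 8.74 CPM in S7 and 0.975 to 4.58 CPM in S6, most of it APOB.

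**Figure D1:**
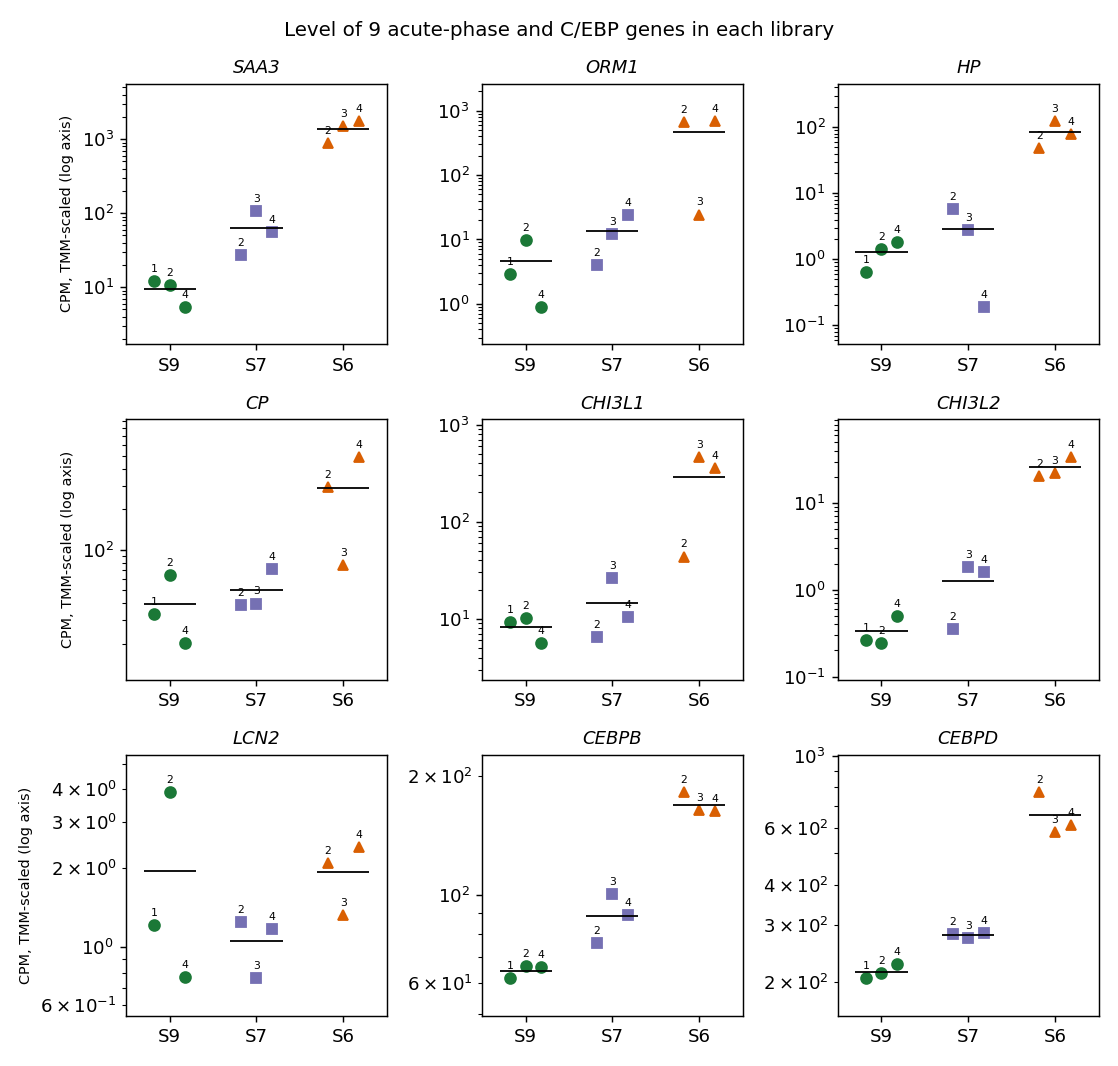
TMM-scaled CPM (vertical log axes, different for each gene) of 9 member genes in the S9, S7 and S6 libraries. Each point is a library marked with its number, and the bar is the group mean. LBP, with 4 counts in all, is not drawn. For SAA3, HP and CHI3L2 the S6 libraries lie far above the others, and for CEBPB and CEBPD they lie above them by a smaller factor. For ORM1 and CP the S6_3 library lies close to the highest S7 library.

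Both C/EBP factors were lower in S9 and in S7 than in S6, with little spread within a group. CEBPB (C/EBP beta, also known as NF-IL6) and CEBPD (C/EBP delta) are leucine-zipper proteins that bind the promoters of acute-phase genes and are themselves induced by inflammatory cytokines. CEBPD was at 205, 213 and 228 CPM in S9_1, S9_2 and S9_4, at 282, 274 and 283 CPM in S7_2, S7_3 and S7_4, and at 771, 583 and 613 CPM in S6_2, S6_3 and S6_4. CEBPB was at 61.6, 66.1 and 65.8 CPM in the S9 libraries, 75.8, 101 and 89.1 CPM in the S7 libraries, and 182, 164 and 163 CPM in the S6 libraries. For both genes every S9 library lay below every S7 library, and every S7 library below every S6 library. CEBPD was 3.04-fold lower in S9 than in S6 (log2 fold change -1.60, SE 0.15) and 2.34-fold lower in S7 than in S6 (-1.23, SE 0.15). CEBPB was 2.63-fold lower in S9 than in S6 (-1.40, SE 0.14) and 1.92-fold lower in S7 than in S6 (-0.94, SE 0.13). Between S9 and S7 the log2 fold change was -0.38 (SE 0.15) for CEBPD and -0.46 (SE 0.13) for CEBPB.

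The ratio of the 2 factors varied less over the libraries than the level of either, but it was not constant. Every S6 ratio lay above every S9 ratio, and S7 overlapped both. Per length, CEBPD exceeded CEBPB in every library, with a ratio of FPKM between 4.26 and 4.58 in S9, 3.59 and 4.92 in S7, and 4.69 and 5.59 in S6. Their highest library was at most 1.33 times the lowest within any group. For the median gene tested that quotient was 1.48 in S9, 1.47 in S7 and 1.64 in S6. In the 6 mitochondria-rich libraries the log2 fold change of CEBPD was -1.69 for S9 against S6 and -1.26 for S7 against S6, and that of CEBPB was -1.44 and -1.07.

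SAA3 had the largest fold of the 9 tested members in S9 against S6, although ORM1 passed it without S9_2 (-7.92 against -7.31 on the log2 scale) and without S6_3 (-7.20 against -7.13). It encodes a serum amyloid A of the kind made outside the liver, and in rabbit it has been described in synovial fibroblasts, where it induces collagenase. SAA3 was at 12, 10.7 and 5.43 CPM in the S9 libraries, 27.4, 107 and 55.6 CPM in the S7 libraries, and 898, 1490 and 1767 CPM in the S6 libraries. The 3 groups did not overlap, with S9_4 the lowest and S6_4 the highest library. The level was 148-fold lower in S9 than in S6 (log2 fold change -7.21, SE 0.64), 21.9-fold lower in S7 than in S6 (-4.45, SE 0.56) and 6.75-fold lower in S9 than in S7 (-2.75, SE 0.53). In S6 this single gene took 0.0907% to 0.181% of all counts. Ranked by FPKM among all genes of a library, SAA3 stood between 2855 and 5569 in S9, between 349 and 1316 in S7, and between 11 and 28 in S6. In the 6 mitochondria-rich libraries the log2 fold change was -6.72 for S9 against S6, -4.85 for S7 against S6 and -1.87 for S9 against S7. Without S7_3 the last 2 were -5.05 and -2.14.

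The hepatic serum amyloid A genes SAA1 and SAA2 share a single row, which RefSeq (assembly mOryCun1.1) lists with both names and places in the same cluster as SAA3. That row was at 0.106, 0.137 and 0.847 CPM in the S9 libraries, 1.56, 0.526 and 9.70 CPM in the S7 libraries, and 32.4, 4.45 and 80.8 CPM in the S6 libraries. It was lower in S9 than in S6 (-6.74 on the log2 scale, SE 1.55, edgeR adjusted p = 0.0308). S7 and S6 overlapped, because S7_4 exceeded S6_3. Of the 2 further protein-coding loci that RefSeq places between it and SAA3, which carry no name, LOC100009259 had 0 counts in every S9 library, 0, 10 and 0 counts in S7, and 61, 52 and 110 counts in S6, while LOC100342244 had at most 13 counts in any library. Reads of near-identical copies can be split between such loci, so the share of each is uncertain, although SAA3 alone held 33156 to 65927 counts in the S6 libraries.

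ORM1 was high in only 2 of the 3 S6 libraries. It encodes orosomucoid, or alpha-1-acid glycoprotein, a plasma carrier of small lipophilic molecules. ORM1 was at 2.88, 9.89 and 0.900 CPM in the S9 libraries, 4.01, 12.2 and 24.0 CPM in the S7 libraries, and 657, 24.4 and 696 CPM in the S6 libraries. S6_3 stood barely above S7_4, so the groups were apart by 0.4 CPM only, and the highest S6 library was 28.5 times the lowest. The log2 fold change was -6.66 (SE 1.45) for S9 against S6, -5.10 (SE 1.34) for S7 against S6 and -1.56 (SE 1.18) for S9 against S7. Without S6_3 it was -7.20 for S9 against S6 and -5.65 for S7 against S6. Without S9_2 it was -7.92 for S9 against S6 and -2.82 for S9 against S7, and without S7_4 it was -5.82 for S7 against S6 and -0.82 for S9 against S7.

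HP, whose product haptoglobin binds free haemoglobin and delivers it to the macrophage receptor CD163, was at 0.635, 1.42 and 1.83 CPM in the S9 libraries, 5.70, 2.75 and 0.191 CPM in the S7 libraries, and 47.7, 125 and 79.3 CPM in the S6 libraries. S6 lay above both other groups in every library, while S9 and S7 overlapped. In S7 the spread was wide, from 7 counts in S7_4 to 209 in S7_2. The log2 fold change was -6.02 (SE 1.01) for S9 against S6, -4.87 (SE 0.95) for S7 against S6 and -1.15 (SE 0.87) for S9 against S7. For S9 against S7 it was -0.17 without S7_2 and -1.70 without S7_4, so that value rested on single libraries, and for S7 against S6 it was -5.84 without S7_2.

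CP encodes ceruloplasmin, a copper-carrying ferroxidase that helps load iron onto transferrin. It was at 32.9, 64.9 and 20.3 CPM in the S9 libraries, 38.5, 39.7 and 71.2 CPM in the S7 libraries, and 290, 77.4 and 492 CPM in the S6 libraries. As for ORM1, the S6_3 library was low, and it lay just above S7_4. The log2 fold change was -2.86 (SE 0.67) for S9 against S6, -2.52 (SE 0.66) for S7 against S6 and -0.34 (SE 0.63) for S9 against S7. In the 6 mitochondria-rich libraries the first was -1.91 and the second -1.74, and without S6_4 they were -2.21 and -1.89.

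The 2 members that act on bacteria or their products were at very low levels in all libraries. LCN2 encodes lipocalin 2, which binds bacterial siderophores and is stored in neutrophil granules and secreted by epithelia, and LBP encodes the protein that carries lipopolysaccharide to CD14. LCN2 was at 1.22, 3.89 and 0.768 CPM in the S9 libraries, 1.25, 0.760 and 1.17 CPM in the S7 libraries, and 2.09, 1.33 and 2.41 CPM in the S6 libraries. S9 overlapped both other groups, with S9_2 the highest of all 9 libraries, while S7 lay below S6. The log2 fold change was 0.01 (SE 0.61) for S9 against S6, -0.87 (SE 0.62) for S7 against S6 and 0.88 (SE 0.62) for S9 against S7, and without S9_2 the first was -0.97 and the third -0.10. LBP had 2 counts in S7_2, 2 counts in S6_2 and 0 counts in the other 7 libraries, where a count of 0 allows up to 0.0794 to 0.0908 CPM by a limit of 3 counts, which covers counting error only. LBP did not pass the filter on low counts and was not tested.

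CHI3L1 and CHI3L2 encode chitinase-like lectins that bind chitin without cutting it. CHI3L1, known as YKL-40 and made by macrophages, neutrophils and chondrocytes, was at 9.21, 10.1 and 5.69 CPM in the S9 libraries, 6.55, 26.4 and 10.4 CPM in the S7 libraries, and 43.8, 467 and 360 CPM in the S6 libraries. All S6 libraries were above the others, but here S6_2 was the low one, and S9 and S7 overlapped. CHI3L2 was at 0.265, 0.246 and 0.503 CPM in the S9 libraries, 0.355, 1.81 and 1.61 CPM in the S7 libraries, and 20.6, 22.4 and 34.2 CPM in the S6 libraries. It was even within S6, where the highest library was 1.65 times the lowest, against 10.7 times for CHI3L1. The log2 fold change of CHI3L1 was -5.12 (SE 0.90) for S9 against S6, -4.33 (SE 0.87) for S7 against S6 and -0.79 (SE 0.77) for S9 against S7. The last was 0.18 in the 6 mitochondria-rich libraries and -0.02 without S7_3, and S7 against S6 was -5.08 without that library. The log2 fold change of CHI3L2 was -6.24 (SE 0.66) for S9 against S6, -4.35 (SE 0.59) for S7 against S6 and -1.88 (SE 0.58) for S9 against S7.

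**Figure D2:**
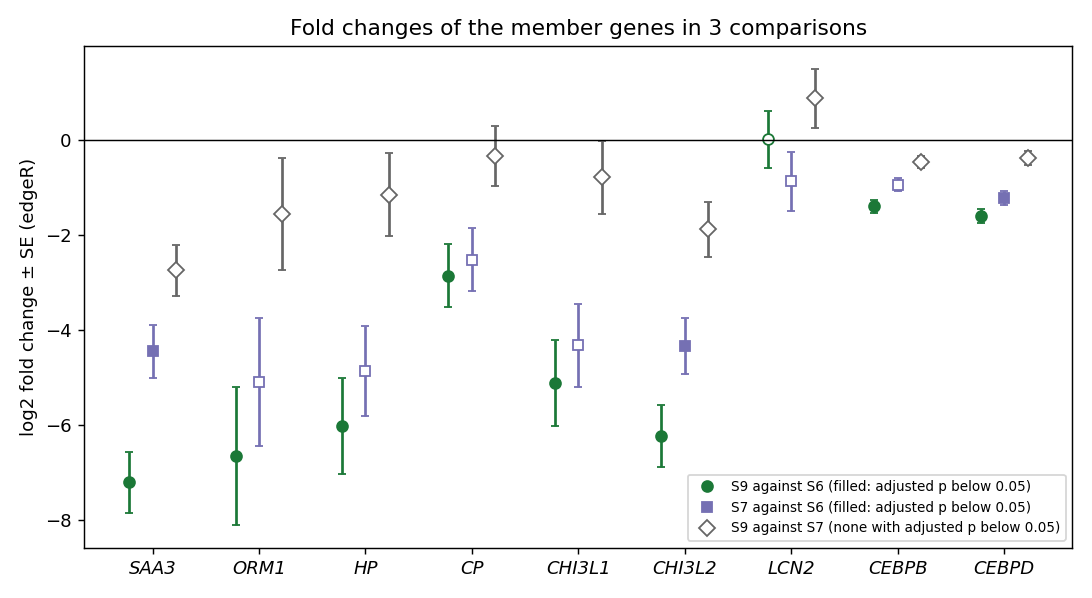
Log2 fold changes (vertical axis, points) of 9 member genes with standard errors (bars), in the comparisons S9 against S6 (circles), S7 against S6 (squares) and S9 against S7 (diamonds). Filled points had an adjusted p below 0.05 in edgeR. In S9 against S6 the values of 8 genes lie between -7.21 for SAA3 and -1.40 for CEBPB, and LCN2 lies at 0.01.

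By edgeR's quasi-likelihood test with Benjamini-Hochberg adjustment over 17102 genes, 8 of the 9 members tested were lower in S9 than in S6 at an adjusted p below 0.05, the exception being LCN2. Of all genes tested 12.4% were called in that comparison, and 6.34% were called lower. In S7 against S6, SAA3, CHI3L2 and CEBPD were called, 3 of 9, where 0.111% of all genes were called and 0.0643% were called lower. In S9 against S7 no member was called and 0% of all genes were. There SAA3, CHI3L2, CEBPB and CEBPD had an unadjusted p below 0.05, which 9.21% of all genes had, and DESeq2 called SAA3. The libraries lay apart, with the first group lower, for 8 of the 9 in S9 against S6, 9 in S7 against S6 and 3 in S9 against S7, where the same held for 17%, 10.4% and 8.81% of all genes. The median log2 fold change of the 9 members was -5.12 in S9 against S6, -4.33 in S7 against S6 and -0.79 in S9 against S7, beside medians of -0.011, -0.01 and 0.001 over all genes tested. S9 and S7 are both set against the same S6 libraries, so the first 2 comparisons are not independent. Since the members were named with these results known, nothing is read from the shares.

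The calls depended on single libraries. In S9 against S6 the count of members called was 0 without S9_1, 0 without S9_2, 4 without S6_4 and 7 without S9_4, and it was 8 when any other library was left out. Without S9_1 the adjusted p of the 8 members lay between 0.0672 and 0.123, and without S9_2 between 0.0532 and 0.0797. In every one of these fits 8 members had an unadjusted p below 0.05, as 31.2% of all genes did with no library left out. In S7 against S6 the count was 1 without S6_3 and 0 without any other library, again with 8 members at an unadjusted p below 0.05, a level that 17.1% of all genes reached with no library left out. In the 6 mitochondria-rich libraries edgeR called SAA3 alone in S9 against S6 and no member in S7 against S6, with 8 unadjusted in both comparisons. The log2 fold changes there for S9 against S6 were -5.74 for ORM1, -6.39 for HP, -4.73 for CHI3L1, -6.38 for CHI3L2 and 0.58 for LCN2. For S7 against S6 they were -4.60, -4.87, -4.91, -4.45 and -0.49 in the same order. The direction did not turn in any fit for the 8 members called in S9 against S6. Without S9_1 the log2 fold change was -7.42 for SAA3, -1.35 for CEBPB and -1.56 for CEBPD, close to the values with all libraries. The calls of S7 against S6 were also lost when an S9 library, which is in neither group, was left out, and SAA3 was then at -4.46 or -4.45.

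The order of the 9 tested members by FPKM, LBP being below all of them in each group, differed between the groups. In S9 the means ran from CEBPD at 166 ± 11.8 FPKM over CEBPB (37.5 ± 1.51), SAA3 (20.5 ± 7.5), CP (11 ± 6.08), ORM1 (6.10 ± 6.19), CHI3L1 (4.51 ± 1.17), HP (1.09 ± 0.519) and LCN2 (0.803 ± 0.670) to CHI3L2 at 0.197 ± 0.0878 (SD, n = 3). In S7 the first were CEBPD at 205 ± 10.8 FPKM, SAA3 at 131 ± 78.7 and CEBPB at 48.9 ± 5.70, and the last was LCN2 at 0.424 ± 0.118. In S6 SAA3 led with 2933 ± 965 FPKM, followed by ORM1 (619 ± 511), CEBPD (486 ± 87.4), CHI3L1 (150 ± 111), CEBPB (95.2 ± 8.44), CP (79.3 ± 59.0), HP (67.3 ± 28.4), CHI3L2 (14.4 ± 4.54) and LCN2 (0.788 ± 0.253). In S9 the libraries of SAA3, CP, ORM1 and CHI3L1 overlapped from each neighbour to the next, as did those of HP and LCN2. Those of ORM1, from 1.26 to 13.1 FPKM, also overlapped with HP and LCN2. In S7 the libraries of CEBPD and SAA3 overlapped, as did those of ORM1, CP, CHI3L1, HP, CHI3L2 and LCN2 from each to the next. In S6 those of ORM1, from 30.4 to 946 FPKM, overlapped with those of CEBPD, CHI3L1, CEBPB, CP and HP. Those of CHI3L1, CEBPB, CP and HP overlapped from each to the next, whereas SAA3 lay above all others and CHI3L2 below HP.

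**Figure D3:**
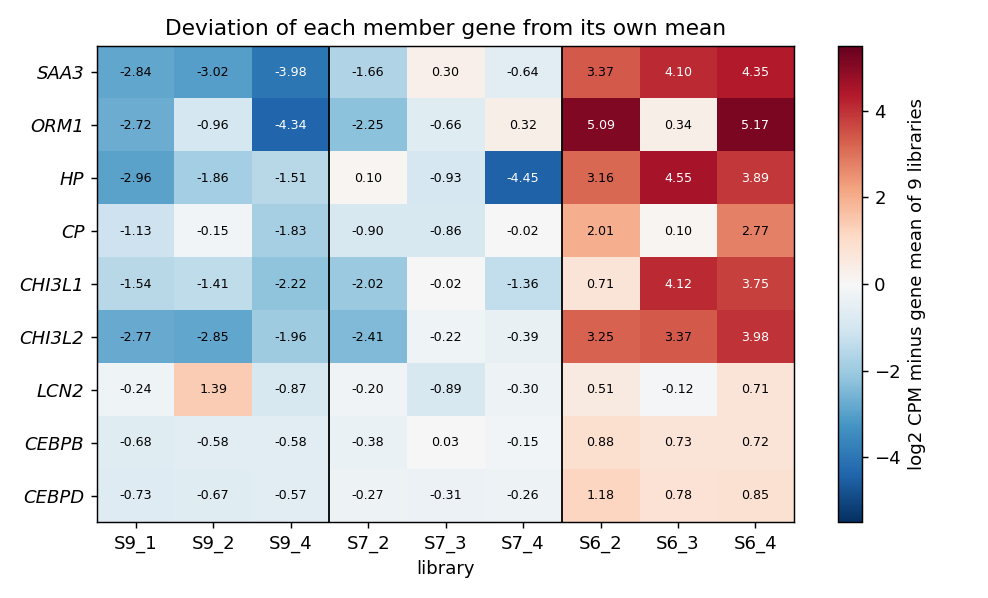
Log2 CPM of 9 member genes minus the mean of each gene over the 9 libraries, printed in each cell and coloured from blue (below) to red (above), with libraries of S9, S7 and S6 from left to right. In the S6 libraries ORM1 is at 5.09, 0.34 and 5.17 and CP at 2.01, 0.10 and 2.77, while HP is at 3.16, 4.55 and 3.89.

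The members did not follow a single pattern over the 3 S6 libraries. In S6_3, ORM1, CP and the SAA1/SAA2 row were low, while SAA3, CHI3L2 and both C/EBP genes were close to the other S6 libraries and HP and CHI3L1 had their highest level. In S6_2, CHI3L1 and HP had their lowest S6 level and ORM1 was high. Measured as the mean absolute difference of centred log2 CPM over the 9 libraries, CEBPB and CEBPD were the closest pair of members at 0.13, then SAA3 and CHI3L2 at 0.56. ORM1 and HP were 2.09 apart, and the widest distance was 2.65 between SAA3 and LCN2.

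Levels of cell type markers also varied between the S6 libraries. The macrophage markers summed to 572 CPM in S6_2, 1407 in S6_3 and 948 in S6_4, which is the order of HP and CHI3L1 in these libraries. The 12 epithelial markers summed to 5277, 3819 and 5080 CPM. Of these 12, 8 had their lowest S6 level in S6_3, among them the adhesion genes EPCAM, at 579, 194 and 502 CPM, and CDH1, at 439, 138 and 477 CPM, which were singled out after their values were seen. The keratin KRT5, at 479, 642 and 556 CPM, and the uroplakin UPK3A, at 1, 2.88 and 0.429 CPM, had their highest S6 level in S6_3, and KRT13, at 1219, 1117 and 842 CPM, lay in between. The iron carrier transferrin (TF), also singled out afterwards, was at 5951, 713 and 10551 CPM in the same order. The part of these markers in the member levels was not tested, and in bulk tissue fewer cells of a type and less RNA per cell cannot be told apart.

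Neutrophil markers also differed between the groups. Their summed level was 461 to 782 CPM in S9, 2933 to 6563 CPM in S7 and 8422 to 15987 CPM in S6, so the 3 groups did not overlap. Of the members, SAA3, CEBPB and CEBPD also kept the 3 groups apart in this order. The other tested members overlapped between S9 and S7, and LCN2 also between S9 and S6. Of the 14 neutrophil markers listed 13 had a row, 11 were tested, and edgeR called 9 of these lower in S9 than in S6. In that comparison 12.4% of all genes were called and 6.34% were called lower. The markers were uneven in level. MMP8 had no count and MPO had 4 counts over all libraries. The calcium-binding protein gene S100A12 was at 381 to 617 CPM in S9, 2197 to 4028 CPM in S7 and 4758 to 10166 CPM in S6. Macrophage markers, 9 with a row of 10, summed to 233 to 436 CPM in S9, 335 to 464 CPM in S7 and 572 to 1407 CPM in S6, and 4 of 9 were called lower in S9 than in S6. Smooth muscle markers ran the other way, at 5872 to 11456 CPM in S9, 2730 to 9587 CPM in S7 and 1735 to 3080 CPM in S6. Of these 6 markers edgeR called 5 higher in S9 than in S6 and 0 lower. The part of cell composition in the levels of the members was not tested.

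Of 105 genes in 8 lists around the acute-phase response, 85 could be tested, counting the shared row of SAA1 and SAA2 once. Values set after a comparison in the text on these lists are log2 fold changes. In S9 against S6 edgeR called 35 of them lower and 2 higher, where 12.4% of all genes were called and 6.34% were called lower. These shares also stand beside the counts of single lists given below. In S7 against S6 it called 4 lower and none higher, with 44 at an unadjusted p below 0.05, beside 0.111% called and 17.1% unadjusted over all genes. In S9 against S7 it called 0, with 19 unadjusted, beside 9.21% over all genes, and 2 called by DESeq2. The count for S9 against S6 was 0 without S9_1, 1 without S9_2, 8 without S6_4 and 0 in the 6 mitochondria-rich libraries. Whichever library was left out, 44 to 54 genes had an unadjusted p below 0.05. Of all genes 31.2% reached that level with no library left out. The 4 calls of S7 against S6 fell to 0 whichever library was left out, with 38 to 48 genes at an unadjusted p below 0.05.

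**Figure D4:**
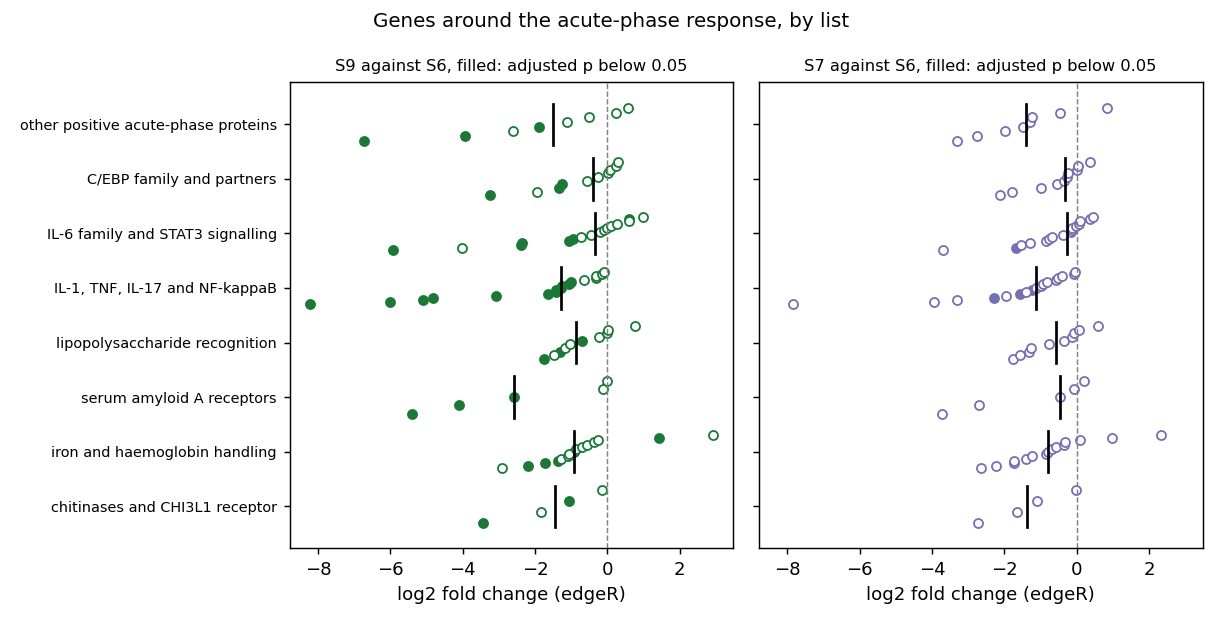
Log2 fold changes (horizontal axes) of genes in 8 lists around the acute-phase response, for S9 against S6 (left) and S7 against S6 (right). Each point is a gene, filled where its adjusted p was below 0.05 in edgeR, and black bars are list medians. In S9 against S6 the median is -2.59 for serum amyloid A receptors and -1.28 for the IL-1, TNF, IL-17 and NF-kappaB list.

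Cytokines of the interleukin 1 and tumour necrosis factor pathways, which act upstream of the acute-phase genes, were lower in S9 than in S6. Of 17 genes of interleukin 1, tumour necrosis factor, interleukin 17 and NF-kappaB signalling, 12 were lower in S9 than in S6 and none was higher, with a median log2 fold change of -1.28. Of all genes 6.34% were called lower there. In S7 against S6 all 17 also had a negative log2 fold change, with a median of -1.13. Of these 3 were called lower, beside 0.0643% of all genes. IL1B, the secreted inflammasome product, was at 0.741 to 1.31 CPM in S9, 1.31 to 5.81 CPM in S7 and 18.9 to 55.1 CPM in S6 (S9 against S6 -5.11, SE 0.66, edgeR adjusted p = 0.0132). IL1A, the other agonist of the interleukin 1 receptor, was at 0.185 to 0.630 CPM in S9, 1.55 to 16.7 CPM in S7 and 6.66 to 20.8 CPM in S6, so that S7 overlapped S6 and lay above S9 (S9 against S6 -4.83, SE 1, edgeR adjusted p = 0.0252, and S9 against S7 -3.89, SE 0.96, edgeR adjusted p = 0.538). TNF was at 0.318 to 0.582 CPM in S9, 0.760 to 1.28 CPM in S7 and 2.52 to 4.81 CPM in S6 (S9 against S6 -3.07, SE 0.48, edgeR adjusted p = 0.0164). NFKBIZ, the inducible co-activator IkappaB-zeta, which acts together with C/EBP factors on LCN2 and other genes, was at 25.6 to 58.7 CPM in S9 and 78.1 to 170 CPM in S6 (-1.65, SE 0.35, edgeR adjusted p = 0.026). NFKB2 and the NF-kappaB inhibitor TNFAIP3 were lower in S9 and also in S7, where their log2 fold changes against S6 were -1.23 and -1.57 (edgeR adjusted p = 0.0499 and 0.0445). IL1RAP, the shared chain of the interleukin 1 receptors, was at 3.59 to 4.98 CPM in S9, 1.88 to 2.75 CPM in S7 and 9.4 to 14.4 CPM in S6, with a log2 fold change of -2.29 in S7 against S6 (edgeR adjusted p = 0.0445).

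IL6 itself had 99 counts over the 9 libraries, at most 0.110 CPM in S9, 0.263 CPM in S7 and 1.45 CPM in S6, and did not pass the filter. OSM, oncostatin M, a cytokine of the same family made by neutrophils and macrophages, was at 0.0265 to 0.164 CPM in S9, 0.0546 to 1.17 CPM in S7 and 0.596, 14.8 and 3.40 CPM in S6_2, S6_3 and S6_4, and was lower in S9 than in S6 (-5.94, SE 1.5, edgeR adjusted p = 0.0388). Of the 16 tested genes of the interleukin 6 family and STAT3 signalling 5 were lower and 1, the phosphatase PTPN11, was higher in S9 than in S6, with a median of -0.33. STAT3 was at 363 to 471 CPM in S9, 403 to 461 CPM in S7 and 381 to 577 CPM in S6, with overlap and a difference of -0.21 on the log2 scale (SE 0.19, edgeR adjusted p = 0.485) in S9 against S6. SOCS3 and PIM1, both known to be induced by STAT3, were lower in S9. SOCS3, the feedback inhibitor, was at 7.17 to 26.0 CPM in S9, 19.2 to 44.5 CPM in S7 and 64.1 to 124 CPM in S6 (S9 against S6 -2.40, SE 0.50, edgeR adjusted p = 0.0253). PIM1, a kinase, was at 10.9 to 15.7 CPM in S9, 15.9 to 24.0 CPM in S7 and 65.8 to 71.8 CPM in S6, and was lower in S9 than in S6 (-2.36, SE 0.21, edgeR adjusted p = 0.00881) and in S7 than in S6 (-1.69, SE 0.20, edgeR adjusted p = 0.0445).

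Of the C/EBP genes that could be tested, edgeR called only CEBPB and CEBPD in S9 against S6. CEBPE, a factor of granulocyte maturation, had 102 counts in all and was not tested, at 0.106, 0 and 0 CPM in the S9 libraries, 0.0546, 0 and 0.0545 CPM in the S7 libraries, and 0.786, 1.76 and 0.188 CPM in the S6 libraries. CEBPA, the factor of resting hepatocytes, fat cells and myeloid precursors, was at 40.1 to 61.0 CPM in S9, 57.1 to 67.5 CPM in S7 and 65.1 to 94.4 CPM in S6 (S9 against S6 -0.56, SE 0.20, edgeR adjusted p = 0.0926). DDIT3, also called CHOP, a stress-induced partner that blocks C/EBP binding, was at 30.7 to 39.0 CPM in S9, 19.1 to 28.2 CPM in S7 and 27.2 to 31.6 CPM in S6 (S9 against S6 0.30, SE 0.18, edgeR adjusted p = 0.289). These differences from CEBPB and CEBPD were not tested. Of 10 tested family members and partners 3 were lower in S9 than in S6 and none was higher, with a median of -0.41. The 3 were BATF (-3.24, edgeR adjusted p = 0.0261), NFIL3 (-1.33, edgeR adjusted p = 0.0164) and TRIB1, a pseudokinase that targets C/EBP alpha for degradation (-1.24, edgeR adjusted p = 0.0207).

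Most other acute-phase genes were scarce or were not called. CRP had 14 counts in all, most of them in S6_3, the fibrinogen genes FGA and FGB and the pentraxin APCS had 0, FGG had 3 and the iron hormone HAMP had 7. Of 8 tested rows 3 were lower in S9 than in S6, the SAA1/SAA2 row, PTX3 and IL1RN, and the median was -1.5. PTX3, a pentraxin made locally, was at 1.75 to 3.01 CPM in S9, 2.07 to 5.15 CPM in S7 and 8.34 to 9.57 CPM in S6 (S9 against S6 -1.88, SE 0.38, edgeR adjusted p = 0.0244). IL1RN, the interleukin 1 receptor antagonist, was at 8.89 to 30.7 CPM in S9, 20.0 to 96.1 CPM in S7 and 166 to 314 CPM in S6 (S9 against S6 -3.94, SE 0.70, edgeR adjusted p = 0.0196). Complement C3 was abundant in all groups, at 268 to 395 CPM in S9, 227 to 423 CPM in S7 and 392 to 620 CPM in S6, and was not called.

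Several receptors for the members' products were lower in S9 than in S6, and a receptor for lipocalin 2 was higher. Of the 5 tested receptors of serum amyloid A, FPR1, FPR2 and CD36 were lower in S9 than in S6, and the median was -2.59. FPR2, a formyl peptide receptor of neutrophils and macrophages, was at 0.0529 to 0.520 CPM in S9, 0.0273 to 1.40 CPM in S7 and 7.23 to 13.0 CPM in S6 (S9 against S6 -5.39, SE 1.20, edgeR adjusted p = 0.029). CD163, which takes up haptoglobin bound to haemoglobin, was at 21.8 to 43.4 CPM in S9, 17.1 to 31.0 CPM in S7 and 57.2, 260 and 105 CPM in S6_2, S6_3 and S6_4 (S9 against S6 -2.20, SE 0.54, edgeR adjusted p = 0.0353). HMOX1, which breaks down haem, was at 26.8 to 35.9 CPM in S9, 30.3 to 103 CPM in S7 and 52.1 to 91.1 CPM in S6 (S9 against S6 -1.29, SE 0.41, edgeR adjusted p = 0.0721). SLC22A17, described in mouse as a receptor for lipocalin 2, was at 27.1 to 55.0 CPM in S9, 28.7 to 35.8 CPM in S7 and 13.6 to 19.3 CPM in S6, and was higher in S9 than in S6 (1.43, SE 0.26, edgeR adjusted p = 0.0208).

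Of the 15 tested genes of iron and haemoglobin handling, 4 were lower and SLC22A17 alone was higher in S9 than in S6, with a median of -0.92. TFRC, the transferrin receptor, had a log2 fold change of -1.37 (edgeR adjusted p = 0.019) and STEAP4, a metalloreductase, of -1.72 (edgeR adjusted p = 0.0226). In the lipopolysaccharide list 3 of 10 were lower. CD14, to which LBP hands its ligand, was at 29.2 to 43.9 CPM in S9, 37.1 to 63.4 CPM in S7 and 53.7, 204 and 112 CPM in S6_2, S6_3 and S6_4 (S9 against S6 -1.75, SE 0.43, edgeR adjusted p = 0.0362). TLR2 had a log2 fold change of -1.31 (edgeR adjusted p = 0.0146) and the adaptor MYD88 of -0.69 (edgeR adjusted p = 0.0196), while TLR4 was at 16.4 to 24.5 CPM in S9, 16.0 to 19.1 CPM in S7 and 26.5, 78.0 and 26.0 CPM in the S6 libraries and was not called (-1.03, SE 0.41, edgeR adjusted p = 0.123). Of the 4 tested chitinase genes and CHI3L1 receptors, 2 were lower in S9 than in S6. CHIT1, an active chitinase of macrophages, was at 1.56 to 3.81 CPM in S9, 1.91 to 7.94 CPM in S7 and 10.6 to 66.8 CPM in S6 (S9 against S6 -3.43, SE 0.78, edgeR adjusted p = 0.0304), and the lysosomal CTBS had a log2 fold change of -1.05 (edgeR adjusted p = 0.04).

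Among all tested genes with a symbol, those whose profile lay closest to a member were found by the mean absolute difference of centred log2 CPM over the 9 libraries, a description in which the points share libraries and groups. For SAA3 they were CXCR2, a neutrophil chemokine receptor, at 0.76, IL1B at 0.79 and the phospholipase PLA2G4D at 0.80. For CHI3L1 they were CSF3R, the receptor for granulocyte colony-stimulating factor, at 0.56, OSM at 0.65 and the platelet chemokine PPBP at 0.66, and for CHI3L2 the lactate transporter SLC16A3 at 0.55 with IL1B and CSF3R at 0.68 each. For ORM1 they were TNIP3 at 1.08, IL17C at 1.09 and TMEM171 at 1.21. HP had IL1RL1, the receptor of interleukin 33, at 0.98, MMP25 at 1.04 and FGF23 at 1.06. CP had MFSD6L at 0.53, SLC6A14 and USH1C at 0.54 each, CEBPB had WARS2 at 0.08, NOSTRIN and FBXO25 at 0.13 each, CEBPD had TNFRSF1B, a receptor for tumour necrosis factor, at 0.11, WARS2 at 0.14 and ICAM1 at 0.16, and LCN2 had KCNA5 at 0.22, ERC2 at 0.28 and SMIM20 at 0.30. These distances are on the log2 scale and are smaller for genes that vary little, so they do not rank the members.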

How the data were processed

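Per the labels' protocols, RNA was purified on columns and libraries were prepared with a SMARTer mRNA kit. The deposited counts are whole reads per gene, and fastp, HISAT2 and HTSeq are named in the submitters' processing notes. Not given in the sources used here were tool versions, genome build and strand setting. FPKM values were deposited too. For 172954 of 172961 values above 0 they were the count over the library total and a fixed gene length, within a relative tolerance of 1e-06, so they hold the same reads. RefSeq (mOryCun1.1) gave the order of loci around SAA3, no coordinates are printed, and no sequences were used.

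Genes were kept by edgeR's filterByExpr (minimum count 10, minimum total 15), so 17102 were tested. TMM scaling was applied, and the counts were fitted with edgeR 4.0.16 (R 4.3.3, robust quasi-likelihood, all 9 libraries, 3 group terms, 6 residual degrees of freedom), and p-values were adjusted by Benjamini-Hochberg over all genes tested with a threshold of 0.05. The script was tested on simulated data. Standard errors are the absolute log2 fold change over the root of F, and the biological coefficient of variation was 41.9%. The members and lists were chosen with earlier results of these data known. A hepatocyte marker of the planned list is not reported here. Besides the members, the genes named were up to 3 with the smallest p of each list in each comparison, 19 genes named in every comparison whatever their result, and the 3 nearest to each member in log2 CPM (prior count 2). C3, PTPN11, CEBPE, the scarce acute-phase genes, TF and the marker genes were named after their values were seen. The unnamed loci between the SAA1/SAA2 row and SAA3 were also outside these rules and were taken by their position. Alternatives were DESeq2 1.42.0, limma 3.58.1 on counts and on log2(FPKM + 1) and log2(FPKM + 0.1), 2 other scalings, 2 other filters, a replicate block, the 2 groups alone, the 6 libraries with high mitochondrial counts, a term for mitochondrial class, a length offset and each library left out.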

Additional observations from a re-analysis of the deposited data

How the results depend on the processing

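Over 22 alternatives, 8 members (all tested but LCN2) kept their sign in S9 against S6, and so did all 9 tested in S7 against S6. Members called in S9 against S6 (8) fell to 0 with the replicate block and 1 in the 6 mitochondria-rich libraries, and ranged from 0 to 8 with a library left out. In S7 against S6 (3) they were 8 with DESeq2, 6 with limma-voom, 5 on log2(FPKM + 1), 0 with the replicate block, the 2 groups alone, the 6 libraries or the mitochondrial term, and 0 to 1 with a library left out. In S9 against S7 (0) DESeq2 called 1. Genes of the related lists called in S9 against S6 (37) were 1 with the replicate block, 0 in the 6 libraries and 0 to 39 with a library left out. In S7 against S6 (4) they were 33 with DESeq2, 17 with limma-voom, 8 on log2(FPKM + 1), 0 with the block, the 2 groups alone or the 6 libraries, 1 with the mitochondrial term and 0 with any library left out, and in S9 against S7 (0) DESeq2 called 2. The cause was not tested. Over all named genes, 192 of 924 values for S9 against S6 and 91 of 968 for S7 against S6 lost a call with the sign kept.

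The sign turned only for values that were not called. LCN2 in S9 against S6 (0.01) was -0.18 with limma-voom, -0.04 on log2(FPKM + 1), -0.18 on log2(FPKM + 0.1), -0.20 with the replicate block, -0.15 with the mitochondrial term, -0.19 without S6_3 and -0.97 (without S9_2) to 0.40 with a library left out. In S9 against S7, LCN2 was -0.10 (without S9_2) to 1.27 and CP -0.91 to 0.02 (without S7_4) with a library left out, HP 0.82 with limma-voom, and CHI3L1 0.10 with the block and 0.18 in the 6 libraries. There OSM was 0.34, CD14 0.09, IL13RA2 0.38 and CHID1 0.12 with the block. STAT3 was 0.02 on both FPKM scales and -0.11 to 0.07 (without S9_1) with a library left out, and CHIT1 0.08 with limma-voom. CHID1 was 0.03 in the 6 libraries, 0 with the length offset, 0.01 without S9_1 and -0.29 to 0.13 (without S7_3) with a library left out, and IL13RA2 was 0.18 without S7_3 and -0.95 to 0.23 (without S9_2).

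Whether the replicate numbers pair libraries was not settled. The correlation of deviations from the group means ran from -0.0649 to 0.138 for same-numbered libraries and from -0.178 to 0.103 for differently numbered ones. S6_2 with S7_2 (0.138), S6_3 with S7_3 (0.132) and S6_4 with S9_4 (0.127) lay above every differently numbered pair. S7_2 with S9_2 (0.064), S6_4 with S7_4 (0.0226), S7_4 with S9_4 (0.0201) and S6_2 with S9_2 (-0.0649) did not.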
